A study of Mus musculus with 3 samples.

Results

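Bone marrow progenitors that carried Cpa3 or Mcpt8 transcripts were taken from single-cell RNA-seq of LSK cells, a sorted bone marrow fraction that holds blood stem cells and multipotent progenitors. Cpa3 encodes the granule carboxypeptidase of mast cells and Mcpt8 encodes a serine protease of basophils. A cell was selected where Cpa3 and Mcpt8 together reached at least 3 UMIs (unique transcript molecules) per 10000 UMIs of that cell. It was also required that Elane, Ctsg and Ms4a3, granule and membrane genes of neutrophil progenitors, summed to less than 20 per 10000. In all, 815 of 21251 cells met both conditions, 151 of 8147 in WT, 89 of 4920 in KO and 575 of 8184 in DKO. These 5 genes chose the cells, so their levels, and the shares of cells, are descriptions and were not tested.

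The study deposited 1 library for each of 3 genotypes. WT was Spop(+/+) Myd88 (+/+), KO was Spop(D/D) Myd88(+/+) and DKO was Spop(D/D) Myd88(-/-), all bone marrow LSK cells made into Chromium 3' v2 libraries. Age, the driver of the Spop deletion, and whether animals were pooled are not given in the labels. Since each genotype had 1 library, no difference between genotypes has a replicate check and no p-value was computed. All intervals are 95% intervals that cover counting error only: exact Clopper-Pearson for shares, exact Poisson for levels and exact conditional binomial for ratios. Cells of 1 library share their source and are not replicates of a genotype.

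Basophils and mast cells are granulocytes that carry the high-affinity receptor for IgE, store histamine and release it with proteases when that receptor is crosslinked. Their progenitors depend on the transcription factor GATA2. GATA2 also works in stem cells and in megakaryocyte and erythroid progenitors, so basophil, mast, megakaryocyte and erythroid programs share part of their transcription factors. SPOP is the substrate adaptor of a CUL3 ubiquitin ligase, and MYD88 relays signals from Toll-like receptors and the interleukin-1 receptor family.

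The library totals were 85700749 UMIs in WT, 101393024 in KO and 109920419 in DKO, with medians of 9245, 17319 and 12404.5 UMIs per cell. The selected cells summed to 1537515 UMIs in WT, 1397031 in KO and 7659715 in DKO. Median depth was 8887 UMIs in selected and 9259 in other cells of WT, 14158 and 17372 in KO, and 12724 and 12357 in DKO. The mitochondrial share of UMIs was close between selected and other cells in each library, at 2.88% and 3.05% in WT, 2.79% and 2.84% in KO, and 2.61% and 2.68% in DKO. Spop transcripts were present in all 3 groups of selected cells, at 73.5 (WT), 69.4 (KO) and 74.3 (DKO) counts per 1000000 UMIs (CPM); which part of the gene was deleted is not given in the labels, so this does not check them. Myd88 was at 18.2, 21.5 and 3.66 CPM in WT, KO and DKO. Xist, the transcript of the inactive X chromosome, was at 1545.5 CPM in DKO and at 0 in WT and KO selected cells, while the Y-linked gene Ddx3y was at 46.8, 30.1 and 0 CPM in WT, KO and DKO. The donors' sex and the DKO genotype therefore cannot be told apart. Of all barcodes, 183 occurred in more than 1 library, 9 of them in selected cells, and no barcode was shared by selected cells of different libraries.

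Cpa3 lies on chromosome 3 at 20215620-20242181 (minus strand, GRCm38, GENCODE vM21), and Mcpt8 on chromosome 14 at 56082166-56085273 (minus strand), next to the ceiling gene Ctsg at 56099881-56102574 on the same strand. Ms4a2, the beta chain of the IgE receptor, lies on chromosome 19 at 11615523-11623719 (minus strand), next to the ceiling gene Ms4a3 at 11629496-11640851. The promoters of Cpa3, Ms4a2 and Mcpt8 are shown because Ms4a2 was found in selected cells with Cpa3. Selected cells with Mcpt8 but no Cpa3 had no Ms4a2 UMI. Each window runs from 250 bases before to 50 after the RefSeq start on GRCm38.p6 and is written 5′ to 3′ on the gene's strand: chr3:20242132-20242431 for Cpa3, chr19:11623670-11623969 for Ms4a2 and chr14:56085148-56085447 for Mcpt8, all on the minus strand. Capitals mark AGATAA, a sequence bound by GATA factors, or its reverse complement TTATCT.

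Cpa3: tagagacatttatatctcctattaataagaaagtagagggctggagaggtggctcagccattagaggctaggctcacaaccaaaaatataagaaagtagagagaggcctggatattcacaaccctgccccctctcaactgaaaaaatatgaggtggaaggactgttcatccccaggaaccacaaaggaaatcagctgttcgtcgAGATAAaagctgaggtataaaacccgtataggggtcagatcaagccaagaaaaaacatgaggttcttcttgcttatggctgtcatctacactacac
Ms4a2: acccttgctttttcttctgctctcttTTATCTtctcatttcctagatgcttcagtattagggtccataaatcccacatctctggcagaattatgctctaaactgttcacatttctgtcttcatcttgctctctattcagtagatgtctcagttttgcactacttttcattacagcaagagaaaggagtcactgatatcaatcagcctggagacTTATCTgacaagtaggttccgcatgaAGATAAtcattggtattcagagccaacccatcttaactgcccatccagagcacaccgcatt
Mcpt8: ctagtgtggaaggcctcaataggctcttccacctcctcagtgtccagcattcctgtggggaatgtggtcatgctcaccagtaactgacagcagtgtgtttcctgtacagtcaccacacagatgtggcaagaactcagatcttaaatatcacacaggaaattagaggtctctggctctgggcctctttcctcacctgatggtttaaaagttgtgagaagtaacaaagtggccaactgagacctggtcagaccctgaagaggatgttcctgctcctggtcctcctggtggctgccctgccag

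The Cpa3 window held AGATAA once, at -46 from the start, and the Ms4a2 window held it 3 times, at -224, -37 and -11. The Mcpt8 window held none and had 1 GAGGAA, a sequence bound by PU.1, at -65. Over both strands, AGATAA occurred in 11.2% of all 32851 RefSeq promoter windows and GAGGAA in 28.3%. Sets of 15 genes highest in selected cells with Cpa3 alone, or with Mcpt8 alone, were close to each other. AGATAA was in 3 of 18 windows of the Cpa3 set and 2 of 17 of the Mcpt8 set. GAGGAA was in 9 and 8 of these windows. These are matches of letters and say nothing of binding.

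The share of cells selected was 1.85% (1.57 to 2.17) in WT, 1.81% (1.46 to 2.22) in KO and 7.03% (6.48 to 7.60) in DKO. The DKO share was the highest and its interval did not overlap the others, while WT and KO differed by less than counting error. With every cell thinned to 5500 UMIs, a depth at which 2 UMIs pass the minimum, the shares were 2.63%, 2.48% and 9.32%. This left out 683 WT and 178 DKO cells that were shallower, and no KO cell.

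**Figure D1:**
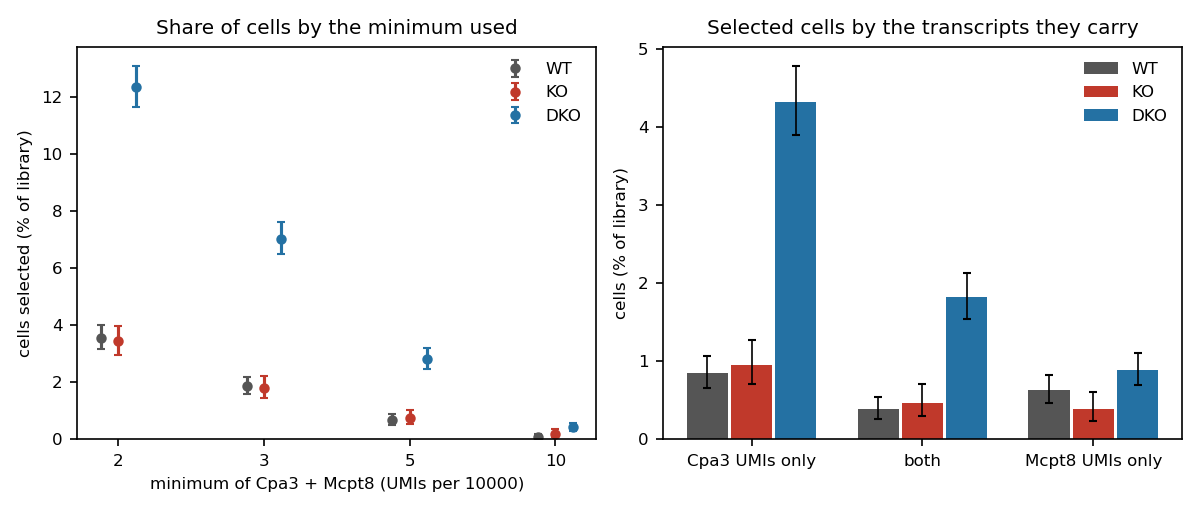
The left panel plots the percentage of cells selected in each library against the minimum of Cpa3 and Mcpt8 UMIs per 10000, with the ceiling on granule genes in place. The right panel splits the selected cells at the minimum of 3 by the transcripts they carried, and error bars in both are exact 95% intervals for counting error. DKO lies highest at every minimum, at 12.4%, 7.03%, 2.81% and 0.415% of its cells, and most of its excess is in cells with Cpa3.

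The ceiling on Elane, Ctsg and Ms4a3 took out different numbers of cells in each library. It removed 15 of 166 WT cells past the minimum, 91 of 180 in KO and 164 of 739 in DKO. Without it, the shares were 2.04% (1.74 to 2.37) in WT, 3.66% (3.15 to 4.22) in KO and 9.03% (8.42 to 9.67) in DKO, so that KO stood above WT. Elane in the other cells was at 80.3, 1314.2 and 224 CPM in WT, KO and DKO, and its part in the shares was not tested. When cells with high erythroid, B lineage or granule genes were left out of each library, the shares were 2.03%, 3.31% and 7.59%.

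Many cells lay close to the limits. In WT, 45 cells had 3 to 3.5 UMIs per 10000 and 52 had 2.5 to 3; the corresponding numbers were 22 and 30 in KO and 113 and 195 in DKO. The lowest value inside was 3.01 in WT and KO and the highest outside 2.98, while in DKO both rounded to 3. The median selected cell carried 4 UMIs of Cpa3 and Mcpt8 together in WT, 7 in KO and 6 in DKO, and 25, 3 and 18 cells were selected on 2 UMIs.

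Most selected cells carried only 1 of the 2 transcripts that defined the selection. In WT, 69 cells carried Cpa3 alone, 51 carried Mcpt8 alone and 31 carried both; in KO these were 47, 19 and 23 cells and in DKO 354, 72 and 149. The minimum itself favours such a split, since a cell without the one transcript must hold more of the other. The ceiling also took out cells with both. Of the cells over it, 5 of 15 in WT, 43 of 91 in KO and 107 of 164 in DKO carried both. Cells with Mcpt8 alone made up 33.8% (26.3 to 41.9) of the selected cells in WT, 21.3% (13.4 to 31.3) in KO and 12.5% (9.93 to 15.5) in DKO. As a share of the library, cells with a Cpa3 UMI were 1.23% (0.9998 to 1.49) in WT, 1.42% (1.11 to 1.79) in KO and 6.15% (5.64 to 6.69) in DKO. Mcpt8-only cells were 0.626% (0.466 to 0.822), 0.386% (0.233 to 0.602) and 0.880% (0.689 to 1.11). Cells with Cpa3 made up most of the higher DKO share. For the Mcpt8-only cells the DKO interval lay above that of KO and overlapped that of WT. By Mcpt8 alone at the same minimum, DKO stood above both, at 1.31% (1.07 to 1.58) against 0.663% (0.498 to 0.864) in WT and 0.467% (0.297 to 0.701) in KO.

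**Figure D2:**
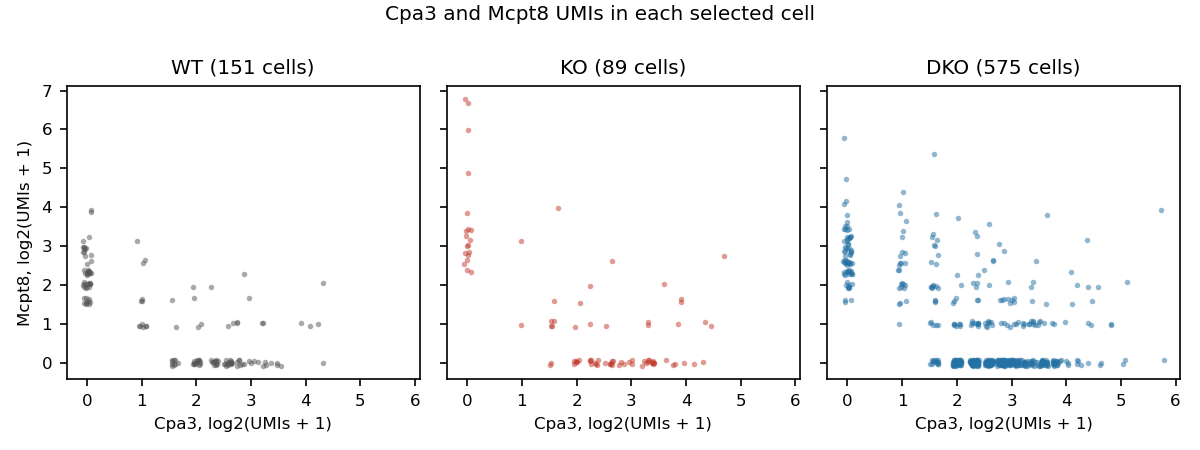
Each point is a selected cell, placed by its Cpa3 UMIs (horizontal) and Mcpt8 UMIs (vertical) as log2(UMIs + 1), with a small random offset so that cells at the same counts can be seen. Most cells lie along the axes: 354 of 575 DKO cells are on the lower edge with Cpa3 alone and 72 on the left edge with Mcpt8 alone.

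The label of basophil- and mast-primed cells was checked against markers the selection did not use. Gata2 was higher in selected than in other cells of each library, at 109.9 against 53.1 CPM in WT, 103.8 against 40.1 in KO and 149.1 against 87.5 in DKO. Fcer1a, the IgE-binding chain of the receptor, had no UMI in the WT selected cells, where 3 counts would be 1.95 CPM. It was at 106 CPM in KO, in 28 of 89 cells, and at 19.5 CPM in DKO, in 53 of 575 cells. Ms4a2 was found in 9 WT, 32 KO and 56 DKO selected cells. Prss34, a protease of mature basophils, had no UMI in WT selected cells, and the mast cell chymases Mcpt1 and Mcpt2 had none in any library. Of the 24 basophil genes in the table, 6 had no UMI in WT selected cells (Fcer1a, Cd200r3, Prss34, Grm6, Lilr4b and Lilrb4a) and none was at 0 in KO or DKO.

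Those markers lay in the cells with Cpa3. The Mcpt8-only cells had no UMI of Ms4a2 or Fcer1a in any of the 3 libraries. Hdc, which makes histamine, had 0 UMIs in 51 WT, 3 in 19 KO and 1 in 72 DKO Mcpt8-only cells. Gata2 was at 29.5 (16.1 to 49.5) CPM in the WT, 26.4 (13.2 to 47.3) in the KO and 25.1 (16.4 to 36.7) in the DKO Mcpt8-only cells, below the other cells of WT (53.1), of KO (40.1) and of DKO (87.5), the KO interval reaching past that value. The data therefore go against a basophil or mast cell label for the Mcpt8-only cells, and the whole set is called here the selected cells.

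The cells with the most Prss34 were taken out by the ceiling. Across the libraries, 9 cells had at least 10 Prss34 UMIs, 1 in WT, 4 in KO and 4 in DKO, and 8 of them were over the ceiling, with 27.5 to 77.6 UMIs of Elane, Ctsg and Ms4a3 per 10000. The WT cell held 576 Prss34, 194 Mcpt8, 35 Cpa3 and 32 Fcer1a UMIs, and the highest DKO cell held 765, 507, 60 and 74. The WT cell thus held Prss34 and Fcer1a, which the WT selected cells lacked.

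Against the other cells of the same library, 6 of the 4859 genes measured in all 3 libraries were at least 2-fold higher in selected cells of each (0.123%), and 1 was at least 2-fold lower (0.0206%). The balance turned with the setting: 3 were higher and 5 lower after thinning, and 5 higher and 11 lower against other cells without high erythroid, B lineage or granule genes. The 6 were Ms4a2, Slc7a8, Fgf3, Slc18a2, Apoe and Csf2rb, and the gene lower was Pf4. A gene was counted where either sum reached 20 CPM, and the 5 genes of the rule were left out of the named genes. A gene under 20 CPM in other cells could therefore be counted as higher but not as lower. Within single libraries, 29 of 5538 genes were past 2-fold higher in WT (0.524%) and 57 lower (1.03%). In KO 82 of 5343 were higher (1.53%) and 73 lower (1.37%), and in DKO 10 of 5469 were higher (0.183%) and 23 lower (0.421%).

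Among genes of the allergic effector program, Ms4a2 was at 20.8 CPM in selected and 0.701 in other WT cells, at 101 and 5.34 in KO and at 23.0 and 2.56 in DKO. The ratios were 29.7 (18.7 to 46.4), 18.9 (15.6 to 22.8) and 8.97 (7.37 to 10.9). In WT, 20 of the 32 Ms4a2 UMIs came from 1 cell, and without it the ratio was 11.3. Slc18a2 (chromosome 19 at 59260896-59296012), the transporter that loads monoamines such as histamine into granules, was at 39.7 against 13.8 CPM in WT, 38.7 against 8.18 in KO and 42.4 against 18.2 in DKO. Its ratios were 2.87 (2.18 to 3.72), 4.73 (3.52 to 6.23) and 2.34 (2.07 to 2.63), and its level in the selected cells hardly differed between genotypes. Hdc was at 12.4 against 2.32 CPM in WT, 62.3 against 11.1 in KO and 20.9 against 6.67 in DKO.

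Among receptors, Csf2rb (chromosome 15 at 78325752-78353847), the shared signalling chain of the receptors for interleukin-3, interleukin-5 and GM-CSF, was 2.01-fold higher (1.51 to 2.63) in WT, 2.53-fold (2.19 to 2.90) in KO and 2.01-fold (1.76 to 2.29) in DKO. Without its top cell it was 1.89 in WT and 1.97 in DKO, under 2-fold. Its near-identical paralog Csf2rb2 was at 10.4, 55.8 and 4.44 CPM in WT, KO and DKO selected cells, and reads can be split between the pair. Itga2b, the integrin chain CD41 of megakaryocytes and early progenitors, was 1.95-, 2.20- and 1.98-fold higher in WT, KO and DKO. In KO cells with high erythroid genes Itga2b was at 96.6 CPM, within the interval of the selected cells (88.0, 73.2 to 105.05). In WT and DKO such cells were at 15.8 and 33.4 CPM, below the 37.7 and 115.9 of the selected cells. Igf1r, the receptor of insulin-like growth factor 1, was 1.59-, 1.64- and 1.58-fold higher. Kit, the stem cell factor receptor that mast cells keep, was at ratios of 1.21, 1.48 and 1.10, under the 2-fold limit in each library.

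Apoe (chromosome 7 at 19696109-19699188), a lipid-carrying protein, was at 431.2 against 159.9 CPM in WT, 204.7 against 60.4 in KO and 421.8 against 200.01 in DKO, which gave ratios of 2.70 (2.49 to 2.92), 3.39 (3.002 to 3.82) and 2.11 (2.03 to 2.19). High Apoe was not confined to the selected cells. In the cells with high erythroid genes it was at 550.7 CPM in WT (35 cells) and 658.8 in DKO (138 cells), above the selected cells. In KO it was at 114.6 CPM (980 cells), below them. The growth factor gene Fgf3 (chromosome 7 at 144838083-144844436) was 3.33-, 4.71- and 3.31-fold higher, and the amino acid transporter Slc7a8 was 4.92-, 6.04- and 3.54-fold higher. Gata2 (chromosome 6 at 88193891-88207032) was 2.07-fold higher (1.76 to 2.41) in WT, 2.59-fold (2.18 to 3.05) in KO and 1.70-fold (1.60 to 1.81) in DKO. The remaining named genes were Smim5, Fam189b, Fam46a, Stx3, Mdga1 and Dach1, with ratios between 1.65 and 3.26. All 15 had intervals above 1 in each library.

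Among genes lower in selected cells, Pf4, platelet factor 4, was at 20.8 against 49.0 CPM in WT, 69.4 against 181.3 in KO and 70.0 against 163.1 in DKO, or 2.35-, 2.61- and 2.33-fold lower. Clec12a, an inhibitory lectin receptor of myeloid cells, was 1.94-fold lower in WT, 3.82-fold in KO and 3.25-fold in DKO. The lysosomal protease Ctss was 3.73-, 1.82- and 2.63-fold lower, and the microsomal glutathione transferase Mgst1 was 1.97-, 2.74- and 2.79-fold lower. S100a8, a subunit of the neutrophil protein calprotectin, was 1.67-fold lower in WT, 43.4-fold in KO and 1.70-fold in DKO. The KO value rested on 7 UMIs in 6 of 89 selected cells, and its interval reached to 21.0-fold lower. The ceiling kept cells with high neutrophil granule genes out of the selected cells and left them among the other cells. Its part in these values was not tested. The other named genes were Rgcc, Mgst2, Pglyrp1, Ttc13, Chchd10, Mllt3, Unc93b1, Mt1, Emb and Stard10. Mt1 in DKO turned to a ratio of 1.36 against other cells without high erythroid, B lineage or granule genes. Of these, the intervals of Mllt3, Unc93b1 and Stard10 in KO and of Mt1 and Stard10 in WT reached past 1.

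**Figure D3:**
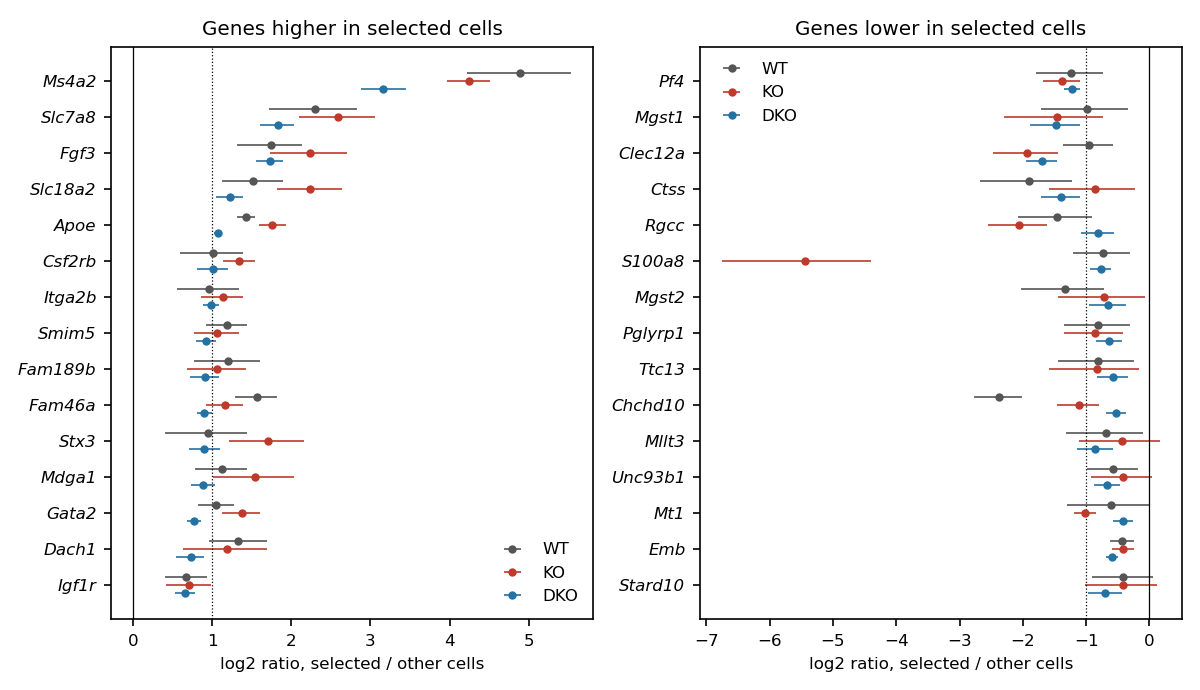
Log2 ratios of summed, depth-scaled UMIs in selected over other cells are shown for the 15 genes with the highest (left) and lowest (right) weakest ratio over WT, KO and DKO. Points are ratios, bars are exact 95% intervals for counting error, the solid line marks equality and the dotted line 2-fold. Ms4a2, Slc7a8, Fgf3, Slc18a2, Apoe and Csf2rb lie past 2-fold in all 3 libraries, and S100a8 in KO lies farthest to the left at 43.4-fold lower. That value rests on 7 UMIs in the KO selected cells, and cells over the granule ceiling are among the other cells.

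The contrast with other cells differed between the libraries for several lists. In KO, the neutrophil list had 13 of its 18 measured genes past 2-fold lower in the selected cells, with a median log2 ratio of -1.75, against -0.03 over all genes. In WT it had 1 of 10 higher and none lower (median 0.35), and in DKO 3 of 13 lower (median -0.28). Of all genes, 0.524% were higher and 1.03% lower in WT, 1.53% and 1.37% in KO, and 0.183% and 0.421% in DKO. The ceiling capped Elane, Ctsg and Ms4a3 in selected cells and removed 91 of 180 cells in KO, and its part in these values was not tested. In WT, Ctsg and Ms4a3 were still 2.39- and 2.08-fold higher in selected cells. In KO they were 2.54- and 3.88-fold lower, and in DKO their ratios were 0.948 and 1.61. The summed level of the neutrophil list was 2513.8 CPM in selected and 1713.5 in other cells of WT. It was 2853.2 and 6175 CPM in KO, and 2524.1 and 2504.2 in DKO. In WT, the lymphoid-primed list had 6 of 11 measured genes lower (median -1.10), among them the lymphoid receptor gene Il7r at 3.90 against 25.5 CPM and Dntt, the template-free DNA polymerase of lymphoid progenitors, at 89.8 against 496.6. The WT library also held 553 cells with high B lineage genes, where KO had 4 and DKO 11. The KO library held 980 cells with high erythroid genes, where WT had 36 and DKO 140.

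The basophil list, which shares genes with the mast cell list, had 3 of 12 measured genes past 2-fold higher in WT (0.524% of all genes), 8 of 15 in KO (1.53%) and 3 of 13 in DKO (0.183%), and none lower, with median log2 ratios of 0.83, 1.13 and 0.39. The mast cell list had 3 of 8, 7 of 13 and 4 of 11 higher and none lower, with medians of 0.93, 1.13 and 0.77. The medians over all measured genes were 0.03, -0.03 and 0.02. The mast cell count in KO included Il1rl1, the receptor for interleukin-33, at 29.3 against 8.33 CPM, and Hdc at 62.3 against 11.1. Both lists were chosen with earlier results of these data known.

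The levels of these genes were also followed over the score itself, in cells under the granule ceiling. Ms4a2 was at 0.359 CPM in WT cells without either transcript, at 7.18 in those with 3 to 5 per 10000, and at 295.5 (182.9 to 451.7) in the 7 cells with 10 or more, where 20 of the 21 UMIs came from 1 cell. In DKO it was at 0.894, 12.2 and 95.3 (70.0 to 126.7) CPM over the same groups, and in KO at 3.37, 66.7 and 107.3 (64.6 to 167.6). In KO it was highest from 5 to 10, at 162.1 (126.1 to 205.1) CPM. Gata2 in DKO was at 89.4 CPM without either transcript, 99.5 below 3, 151.1 from 3 to 5, and 174.3 (139.4 to 215.3) at 10 or more. In KO, Gata2 was at 56.5 (27.1 to 103.9) CPM in the 9 cells at 10 or more, no higher than the 66.1 in cells at 0. These KO cells included 3 with 60 to 106 Mcpt8 UMIs and no Cpa3. The cells below 3 were deeper, with a median of 12328 against 8757 UMIs for those from 3 to 5 in WT.

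**Figure D4:**
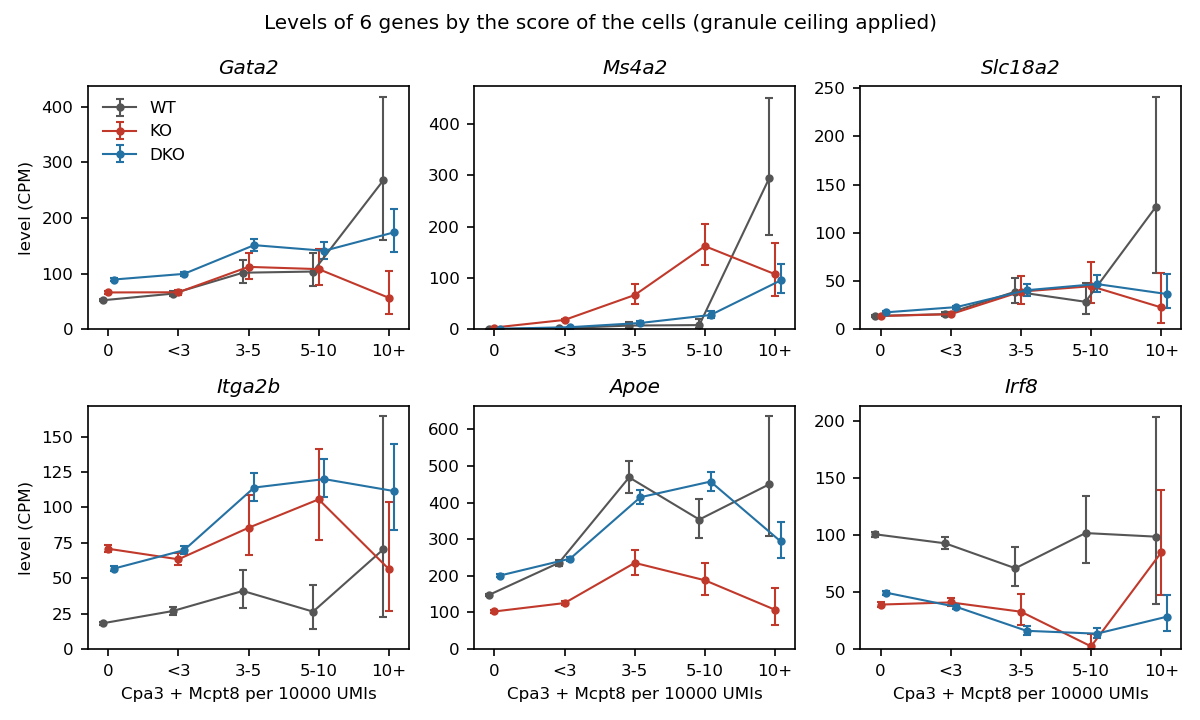
Levels in CPM are plotted for Gata2, Ms4a2, Slc18a2, Itga2b, Apoe and Irf8 in cells grouped by Cpa3 plus Mcpt8 per 10000 UMIs, separately for WT, KO and DKO, with exact 95% intervals for counting error. Only cells under the granule ceiling are included. Ms4a2 stands highest at a score of 10 and over in DKO (95.3 CPM) and in WT (295.5 CPM, 20 of 21 UMIs from 1 cell) and from 5 to 10 in KO (162.1 CPM). Gata2 in KO is at 108.0 CPM from 5 to 10 and at 56.5 CPM at 10 and over.

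Taken by single transcripts among cells under the granule ceiling, the 2 scores pointed in opposite directions for Gata2. At 3 or more Cpa3 UMIs per 10000, Gata2 was at 164.2 (138.4 to 193.5) CPM in WT, 146.4 (121.6 to 174.8) in KO and 183.8 (172.5 to 195.6) in DKO, against 49.8, 59.3 and 80.6 in cells without Cpa3. At 3 or more Mcpt8 UMIs per 10000 it was at 31.7 (18.1 to 51.5), 46.4 (29.1 to 70.3) and 42.5 (33.0 to 54.0) CPM, against 57.1, 74.1 and 106.3 in cells without Mcpt8. Irf8, a transcription factor of monocyte, dendritic and B cell fates, went the other way in all 3 libraries. At 3 or more Mcpt8 it was at 166.4 (132.7 to 206.0), 65.4 (44.5 to 92.9) and 52.0 (41.4 to 64.6) CPM, against 95.4, 35.0 and 38.1 without Mcpt8. At 3 or more Cpa3 it was at 33.3, 12.0 and 4.82 CPM. The KO directions depend on the ceiling. With cells over it included, KO cells that were not selected had Irf8 at 73.6 CPM and Gata2 at 40.1.

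The Cpa3-only and Mcpt8-only cells were then compared gene by gene, a split chosen after the values were seen. Of 4949 genes measured in all 3 libraries, 38 were at least 2-fold higher in the Cpa3-only cells of each (0.768%) and 21 at least 2-fold lower (0.424%). A split by the presence of a Mcpt8 UMI kept the same Cpa3-only cells and set them against all selected cells with Mcpt8. It only added the cells with both transcripts to the Mcpt8-only cells and is not a separate view. That split gave 12 (0.242%) and 8 (0.161%) of 4961. Within single libraries that split gave 3.29% of genes higher and 2.42% lower in WT, 6.45% and 3.73% in KO, and 0.652% and 0.471% in DKO. The Cpa3-only and Mcpt8-only cells numbered 69 and 51 in WT, 47 and 19 in KO and 354 and 72 in DKO. Their median of Elane, Ctsg and Ms4a3 per 10000 UMIs also differed, at 1.22 and 3.60 in WT, 3.15 and 15.1 in KO and 1.62 and 10.4 in DKO, and its part in the differences was not tested.

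Some transcription factors shared by basophil, mast, megakaryocyte and erythroid lineages were higher in the Cpa3-only cells. Gata2 was at 157.4 against 29.5 CPM in WT, 148.0 against 26.4 in KO and 187.2 against 25.1 in DKO, with ratios of 5.33 (3.05 to 10.1), 5.60 (2.99 to 11.6) and 7.47 (5.06 to 11.5). Gata1 (chromosome X at 7959260-7978071) was at 23.1 against 2.11 CPM in WT and 41.0 against 1.93 in DKO. In KO it was at 92.5 CPM with no UMI in the Mcpt8-only cells, at least 12.8-fold higher against 3 counts. Gfi1b, a repressor that works beside GATA factors, was 5.82-fold higher (2.08 to 22.6) in WT, 19.9-fold (3.31 to 810) in KO and 3.85-fold (1.89 to 9.10) in DKO. Zfpm1, the GATA1 cofactor FOG1, was at 34.7 against 6.32 CPM in WT, 60.1 against 12.0 in KO and 37.2 against 9.64 in DKO. The list of transcription factors of these lineages had 4 of 22 measured genes past 2-fold higher and 1 lower in WT, 11 of 23 and 2 in KO, and 5 of 22 and 3 in DKO, so that most of the list was within 2-fold in WT and DKO. Over all genes, 5.37% were higher and 3.57% lower in WT, 11% and 6.67% in KO, and 2.39% and 1.35% in DKO.

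The same cells were higher in Apoe, at 752.3 against 46.4 CPM in WT, 377.7 against 2.40 in KO and 615.9 against 16.4 in DKO. Fgf3 had 48 UMIs in the Cpa3-only cells and 1 in the Mcpt8-only cells of WT, 35 and 0 in KO, and 282 and 1 in DKO. Slc18a2 was at 56.3 against 12.6 CPM in WT, 61.7 against 2.40 in KO and 59.3 against 3.85 in DKO. The platelet genes Pf4 and Gp9 were higher in Cpa3-only cells too, with Pf4 at 39.0 against 4.22 CPM in WT, 141.8 against 0 in KO and 94.8 against 10.6 in DKO. The megakaryocyte list had 7 of 12 genes past 2-fold higher in WT, 12 of 14 in KO and 9 of 15 in DKO, where 5.37%, 11% and 2.39% of all genes were. The erythroid list had 3 of 5, 11 of 12 and 5 of 6 higher.

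Lower in the Cpa3-only than in the Mcpt8-only cells were genes of lymphoid-myeloid progenitors. Irf8 was at 33.2 against 168.6 CPM in WT, 7.71 against 72.1 in KO and 3.88 against 61.7 in DKO, or 5.08-, 9.36- and 15.9-fold lower. Flt3, the receptor that marks lymphoid-primed multipotent progenitors, was 3.44-, 9.36- and 3.89-fold lower, and Clec12a 16.1-, 5.12- and 13.7-fold lower. Satb1, a chromatin organiser of lymphoid progenitors, was 3.13-, 4.16- and 4.01-fold lower, and Dntt 2.55-, 3.51- and 7.45-fold lower. The lymphoid-primed list had 6 of 8 measured genes past 2-fold lower in WT, 5 of 7 in KO and 5 of 7 in DKO, and none higher. The shares of all genes lower were 3.57%, 6.67% and 1.35%. The neutrophil list had 2 of 11 lower in WT, 8 of 12 in KO and 6 of 12 in DKO.

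Set against the other cells rather than against the Cpa3-only cells, the Mcpt8-only cells differed by library. They were not higher in all lymphoid genes. In WT, Dntt was lower in Mcpt8-only than in other cells, at 147.5 (115.0 to 186.4) against 496.6 CPM. Flt3 was at 124.4 (94.7 to 160.4) against 139.6 CPM there, and Satb1 at 153.9 (120.6 to 193.5) against 114.6. Irf8 was at 61.7 (47.5 to 78.8) CPM in Mcpt8-only and 51.8 in other cells of DKO, and at 72.1 (48.7 to 103.0) and 73.6 in KO, but in WT it was higher in Mcpt8-only cells, at 168.6 (133.7 to 209.9) against 100.8. Clec12a was at 75.2 (59.4 to 93.8) and 62.4 CPM in DKO and at 92.7 (67.4 to 124.5) and 69.5 in WT, but in KO it was lower in Mcpt8-only cells, at 55.3 (35.05 to 83.0) against 93.0. Mpo, the peroxidase of neutrophil granules, was at 400.5 CPM in Mcpt8-only against 183.9 in other cells of WT, 478.9 against 368.3 in DKO and 555.3 against 1106.9 in KO. Prtn3, a neutrophil serine protease, was at 807.3 against 498.7 CPM in WT, 1012.7 against 724.3 in DKO and 1786.2 against 2655.4 in KO. The chemokine gene Ccl9 was higher in the Mcpt8-only cells of all 3 libraries, at 362.5 against 115.2, 305.3 against 162.6 and 527.1 against 242.2 CPM in WT, KO and DKO.

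**Figure D5:**
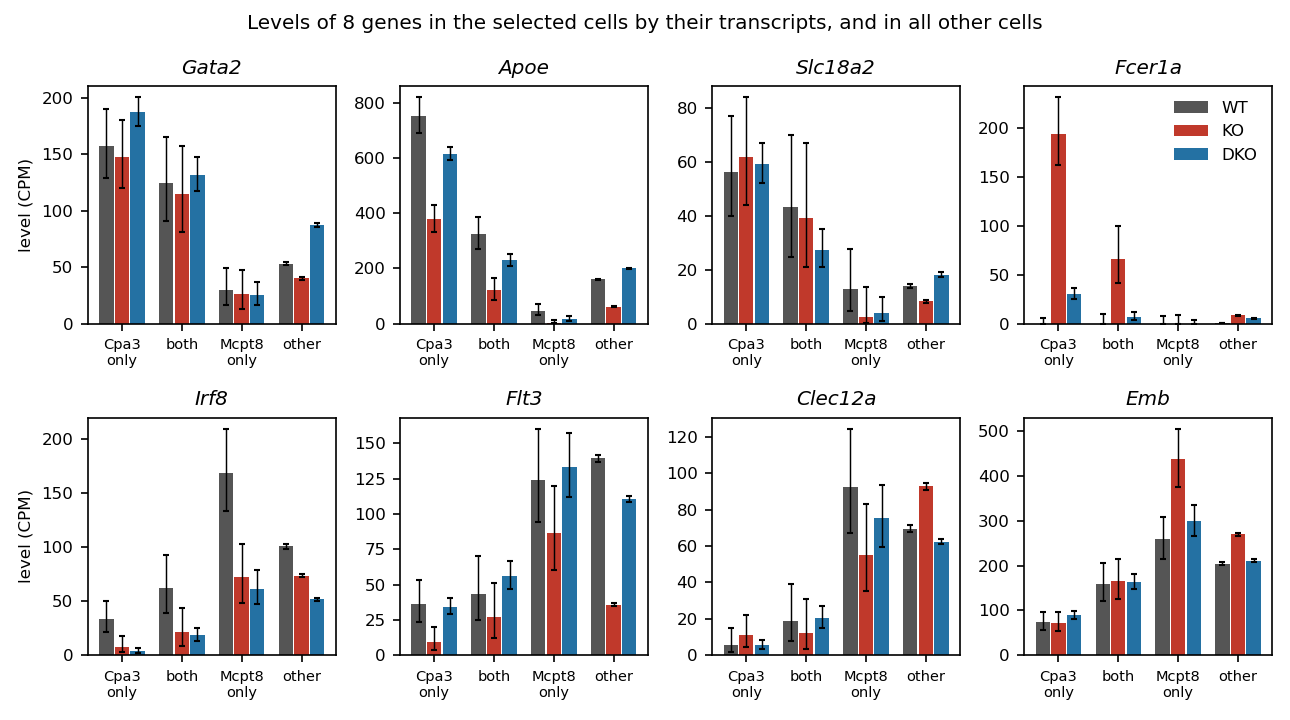
Bars give levels in CPM, starting at 0, for 8 genes in cells with Cpa3 only, both transcripts or Mcpt8 only and in all other cells of WT, KO and DKO, with exact 95% intervals for counting error. Gata2, Apoe and Slc18a2 are high with Cpa3 and low with Mcpt8 alone, and Fcer1a is highest in KO Cpa3-only cells at 194.2 CPM. Irf8, Flt3, Clec12a and Emb are higher with Mcpt8 alone than with Cpa3 alone.

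Cells with both transcripts lay between the other groups for Gata2 in each library, but not for every gene. Gata2 was at 124.1, 114.3 and 131.9 CPM in WT, KO and DKO. Apoe was at 229.4 CPM in DKO cells with both, between 615.9 and 16.4, and Mpo at 456.6, between 161.0 with Cpa3 alone and 478.9 with Mcpt8 alone. In WT, Mpo with both was at 372.4 CPM, below the 402.9 with Cpa3 alone and the 400.5 with Mcpt8 alone. Prtn3 in WT was at 860.9 CPM with both, above 586.3 and 807.3. The UMIs of granzyme B (Gzmb) came mostly from single cells: 23 of the 24 UMIs in KO and 34 of the 36 in DKO cells with both came from 1 cell each. Gene levels in such cells are not levels of the group.

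Free RNA was checked in cells that should lack these transcripts, after thinning to 5500 UMIs. In WT, 0.385% (0.0467 to 1.39) of the 519 B lineage cells had a Cpa3 UMI and 0.193% (0.00488 to 1.07) a Mcpt8 UMI, against 4.03% and 4.71% of all cells that were not selected. The median depths before thinning were 14318 and 9718 UMIs, and without thinning the Cpa3 shares were 0.578% and 6.54%. In KO, 1.63% (0.936 to 2.64) of 980 erythroid cells had a Mcpt8 UMI, against 11.9% of cells not selected. Cpa3 was found in 9.59% of the KO erythroid cells, against 6.54% of cells not selected. Free RNA and expression in the erythroid cells cannot be told apart here, so the amount of free Cpa3 RNA in KO stays unknown. In DKO, 0 of 138 erythroid cells had a Mcpt8 UMI, which allows a share of up to 2.17% by 3 counts and 2.64% by the exact interval, against 9.63% of cells not selected. Without thinning 2.90% of them had one. Cpa3 was found in 16.7% (10.9 to 23.95) of the DKO erythroid cells, against 14.0% of cells not selected. The amount of free Cpa3 RNA in DKO therefore stays unknown too.

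Between genotypes, the selected cells of KO held 238 genes at least 1.5-fold higher than those of WT (4.65% of 5119 genes with a mean of 20 CPM or more) and 486 lower (9.49%). DKO against KO gave 463 higher (9.02% of 5131) and 134 lower (2.61%), and DKO against WT 268 higher (5.09% of 5264) and 178 lower (3.38%). The comparisons share libraries and are not independent. TMM scaling in place of library totals had log2 factors of -0.09, 0.11 and 0.02 for the 3 comparisons. It changed the split to 350 higher and 346 lower for KO against WT, 300 and 213 for DKO against KO, and 236 and 195 for DKO against WT. In these sums, a changed mix of Cpa3-only and Mcpt8-only cells and a changed level per cell cannot be told apart unless the groups are given separately.

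Among the genes of the IgE receptor chains, Fcer1a and Ms4a2 were highest in KO and Fcer1g was not. Fcer1g, the signalling gamma chain, was at 176.9, 132.4 and 154.4 CPM in WT, KO and DKO, within 1.5-fold in each comparison. Fcer1a had 148 UMIs in 28 of the 89 KO cells and none in the 151 WT cells, so that KO was at least 54.3-fold higher against 3 counts in WT. In DKO it was 5.45-fold lower than in KO, at 19.5 against 106 CPM. Ms4a2 was at 20.8, 101 and 23.0 CPM in WT, KO and DKO, which is 4.85-fold higher (3.28 to 7.36) in KO than in WT, with DKO 4.39-fold below KO. Within the Cpa3-only cells alone, Fcer1a was at 0, 194.2 (161.8 to 231.3) and 30.3 (25.4 to 35.9) CPM in WT, KO and DKO, and Ms4a2 at 12.996 (5.94 to 24.7), 140.3 (113.0 to 172.2) and 33.5 (28.3 to 39.4). KO therefore stood above WT and DKO in these cells as well. Over the whole libraries, KO over WT was 6.27 for Ms4a2, and DKO over KO was 0.599, nearer to 1 than the 0.228 in selected cells.

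Csf2rb and Il1rl1 were also highest in KO, but the list of Fc epsilon and cytokine receptors went both ways. Of its 13 measured genes, 4 were past 1.5-fold higher and 4 lower in KO than in WT (median log2 ratio -0.20), 1 higher and 4 lower in DKO against KO, and 1 and 1 in DKO against WT. The shares of all genes higher and lower were 4.65% and 9.49%, 9.02% and 2.61%, and 5.09% and 3.38% in these comparisons. Csf2rb was at 36.4, 149.6 and 34.1 CPM in WT, KO and DKO selected cells, 4.11-fold higher (3.05 to 5.62) in KO than in WT, with DKO 4.39-fold below KO. Its ratios over the whole libraries were 3.28 for KO over WT and 0.301 for DKO over KO. Il1rl1 was at 1.95, 29.3 and 5.87 CPM, and Hdc at 12.4, 62.3 and 20.9. Csrp3, a LIM domain protein better known from muscle, was at 3.90, 113.1 and 25.7 CPM, and Sapcd1 at 3.90, 121.0 and 8.09. Car1, carbonic anhydrase 1, was at 0.650, 116.7 and 14.4 CPM. Of the 89 KO selected cells, 7 had high erythroid genes (Car1, Klf1 and Ermap), against 0 in WT and 3 in DKO. Without these cells Car1 in KO over WT was 44.8, down from 179.4 (31.7 to 7128.5), with 1 UMI in WT. Fcer1a without them was at least 48.8-fold higher.

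By lists, 7 of 15 measured basophil genes were past 1.5-fold higher in KO than in WT and 1 lower, with a median log2 ratio of 0.28 against -0.04 over all genes. In DKO against KO, none of 14 was higher and 6 were lower (median -0.07 against 0.12). In DKO against WT, 1 of 12 was higher and none lower. The mast cell list had 6 of 12 higher and 1 lower in KO against WT, and 4 of 12 lower and none higher in DKO against KO. The erythroid list had 6 of 8 higher in KO than in WT and 2 lower. Of all genes, 4.65% were higher and 9.49% lower in KO against WT. These shares were 9.02% and 2.61% in DKO against KO, and 5.09% and 3.38% in DKO against WT.

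Immediate early genes, which cells switch on within minutes of a stimulus, were lowest in KO. Of 19 measured, 18 were past 1.5-fold lower in KO than in WT and none higher, with a median log2 ratio of -1.77, where 9.49% of all genes were lower. DKO against KO had 10 of 18 higher and none lower (median 1.03, with 9.02% of all genes higher), and DKO against WT 14 of 20 lower and none higher (median -0.77, with 3.38% of all genes lower). Fos was at 705.7, 85.9 and 435.7 CPM in WT, KO and DKO, Egr1 at 187.3, 27.2 and 68.3, and Dusp1 at 141.1, 40.8 and 112.1. Fos in KO was 8.22-fold lower than in WT (ratio 0.122, 0.09995 to 0.147) in selected cells, and its ratio over the whole libraries was 0.104. The same genes thus differed over whole libraries and not in the selected cells alone. The regulators of G protein signalling Rgs1 and Rgs2 were 4.91- and 3.13-fold higher in DKO than in KO.

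Interferon-stimulated genes were highest in KO. In KO against WT, 12 of 20 measured were past 1.5-fold higher and none lower (median 0.66), against 4.65% of all genes higher. In DKO against KO 10 of 20 were lower and 1 higher (median -0.57), against 2.61% of all genes lower. Ifitm1, a membrane protein that restricts viral entry, was at 618.5, 1970.6 and 453.8 CPM in WT, KO and DKO. Over the whole libraries KO over WT was 2.09 for Ifitm1, against 3.19 in selected cells. Metallothionein Mt1 was at 13.7, 204.0 and 47.8 CPM in WT, KO and DKO, 14.9-fold higher (9.59 to 24.5) in KO than in WT.

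DNA replication genes were highest in DKO by their list median. Of the 30 S phase genes, 13 were past 1.5-fold higher in DKO than in KO and none lower (median log2 ratio 0.54, or 0.43 and 9 genes after TMM scaling), and 10 were higher than in WT and none lower (median 0.43). Of all genes, 9.02% and 5.09% were higher in these comparisons. The replicative helicase gene Mcm6 was at 155, 140 and 245 CPM in WT, KO and DKO, and Prim1, a primase subunit, was 2.21-fold higher (1.71 to 2.92) in DKO than in WT, against 1.41-fold over the whole libraries. Thymidine kinase Tk1 and the ribonucleotide reductase subunit Rrm2 were 1.99- and 1.96-fold higher in DKO than in WT. G2 and M phase genes showed 1 of 27 higher in DKO than in WT and 3 of 28 lower in DKO than in KO. Of all genes, 5.09% and 2.61% were.

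Other genes also differed between DKO and WT. Itga2b was 3.07-fold higher (2.36 to 4.08) in DKO, at 115.9 against 37.7 CPM, with 3.18-fold over the whole libraries. Dntt was 3.95-fold lower, at 22.7 against 89.8 CPM, and Pou2f2, the lymphoid factor OCT2, 2.26-fold lower. Irf8 was at 82.0, 30.1 and 15.9 CPM in WT, KO and DKO. Dntt and Irf8 were among the genes higher in Mcpt8-only than in Cpa3-only cells. The Mcpt8-only cells made up 33.8% of the selected cells in WT and 12.5% in DKO. Within the Mcpt8-only cells, Dntt was at 147.5 CPM in WT and 93.5 in DKO, and Irf8 at 168.6 and 61.7. Counted in the cells with a Cpa3 UMI alone, KO against WT had 275 genes higher and 578 lower, DKO against KO 615 and 180, and DKO against WT 268 and 198.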

How the data were processed

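The deposited count table gives whole-number UMI counts per gene and cell for 14721 genes in the 21251 cells the authors kept. Per the submitters' processing notes, the tools were Cell Ranger, bcl2fastq and Seurat with mm10, versions not given in the sources used here. The deposited normalized table was not used. Cells were selected from the counts by the stated rule. Counts were summed over cells of a library and scaled to 1000000 (CPM). Genes needed 20 CPM in either sum (within a library) or as the pair's mean (between genotypes). Calls were ratios past 2-fold within a library and 1.5-fold between genotypes. No test was run, with 1 library per genotype. The named genes were the 15 each way with the most extreme weakest ratio over the 3 libraries, and the 8 each way with the largest ratio per genotype pair at a mean of 50 CPM. Rule, ribosomal, mitochondrial, globin, predicted and sex-linked genes were left out of both. The members and the 23 gene lists were chosen with earlier results of these data known. Scrublet (scanpy 1.11.5) marked 0.0245% (WT), 0.102% (KO) and 0.0489% (DKO) of cells, which is not a working call, and no doublets were removed. An alternative removed the highest scores at 0.8% per 1000 cells. edgeR 4.0.16 gave TMM factors. The script was tested on simulated data. Sequences came from a RefSeq promoter table.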

Additional observations from a re-analysis of the deposited data

Results flagged for a closer look

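Mpo, the neutrophil peroxidase, went in opposite directions in the WT and KO libraries. In WT it was at 394.8 CPM in selected and 183.9 in other cells, a ratio of 2.147 (1.98 to 2.33), and in KO at 345.0 and 1106.9 CPM, a ratio of 0.3117 (0.284 to 0.341). In DKO the ratio was 0.788 (0.755 to 0.823). The level in the selected cells lay between 290.4 and 394.8 CPM in the 3 libraries, while that of the other cells ranged from 183.9 to 1106.9. The difference between the libraries was not tested, since each genotype had 1 library.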

How the results depend on the processing

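No paired analysis was possible because each genotype had 1 library; for the same reason no replicate could be left out. The DKO share stayed highest under every setting tried. For WT, KO and DKO in that order, the shares were 2.63%, 2.48% and 9.32% with cells thinned to 5500 UMIs, 1.29%, 1.24% and 5.29% at 3500, and 2.26%, 2.02% and 8.79% at 9000. They were 3.56%, 3.435% and 12.4% at a minimum of 2 per 10000, 0.663%, 0.752% and 2.81% at 5, and 0.0859%, 0.183% and 0.415% at 10, where the KO and DKO intervals overlapped. Cpa3 alone gave 0.994%, 1.20% and 5.13%, and Mcpt8 alone 0.663%, 0.467% and 1.31%. A ceiling of 10 gave 1.55%, 1.14% and 5.47%, a ceiling of 40 gave 2.001%, 2.70% and 8.22%, and no ceiling gave 2.04%, 3.66% and 9.03%. KO was 3.31% without cells high in erythroid, B lineage or granule genes.

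Genes past 2-fold against other cells numbered 86, 155 and 33 in WT, KO and DKO, and 7 in all 3. A minimum level of 50 CPM gave 30, 68, 11 and 1, a minimum of 5 CPM gave 396, 540, 120 and 26, and a limit of 1.5-fold gave 292, 608, 102 and 36. With a Cpa3 UMI only, a setting added after the data were seen, WT had 145, KO 298 and all 3 had 18. Other cells without high erythroid, B lineage or granule genes gave 79 in KO and 16 in all 3. Thinning gave 316 in KO, weighting by depth 87 in KO, a minimum of 5 per 10000 gave 224 in WT, and removal of the top doublet scores gave 12 in all 3. Genes past 1.5-fold numbered 724 (KO against WT), 597 (DKO against KO) and 446 (DKO against WT). At 50 CPM these were 240, 180 and 133, at 5 CPM 2221, 1810 and 1431, at a minimum of 5 per 10000 1226, 1003 and 852, after thinning 1181, 1027 and 764, and past 2-fold 172, 128 and 50. With a Mcpt8 UMI only they were 1190 for KO against WT and 731 for DKO against WT. Mt1 in DKO turned from lower to a ratio of 1.36 against other cells without high erythroid, B lineage or granule genes. The causes were not tested. Of the values for single genes, 631 stayed within their counting interval, 99 moved and 1 reversed. With 89 cells in KO and 151 in WT, counting error limits genes at low levels most.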

Other observations

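S phase transcripts per cell were also compared at a common depth of 5500 UMIs. The median share of UMIs from the 30 S phase genes was 0.164% in selected and 0.218% in other cells of WT, 0.236% and 0.327% in KO, and 0.382% and 0.291% in DKO. The selected cells thus lay below the other cells in WT and KO and above them in DKO. The DKO value was 0.382% in the cells with a Cpa3 UMI and 0.318% in the Mcpt8-only cells.

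Thy1, a surface protein of T cells and of some early progenitors, was at 30.5 CPM in selected and 15.3 in other cells of DKO, at 15.7 and 6.60 in KO and at 9.11 and 7.69 in WT. In WT the interval of the ratio, 0.644 to 2.002, held 1. The stem cell antigen gene Ly6a, which encodes the Sca-1 protein used in the sort, was at 39.7 CPM in selected and 91.3 in other cells of WT, 77.3 and 85.2 in KO, and 50.9 and 92.4 in DKO.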
